A study of Mus musculus with 6 samples.

Results

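The genes described here encode the NADPH oxidase of phagocytes and its closest relatives: Cybb, Cyba, Ncf1, Ncf4, Rac2, Nox1 and Nox4. They were taken by gene symbol from the table of read counts, and all 7 were among its 22601 genes. RNAseq libraries of osteoclasts, the multinucleated cells that resorb bone, were compared between WT mice and Slc37a2 KO mice, with 3 libraries of each genotype, to ask how loss of this lysosomal transporter affects osteoclast gene expression. The KO animals carried the Slc37a2 tm2a (KOMP) allele, made from a single embryonic stem cell clone, and all mice were on the C57BL/6N background. According to the sample labels, bone marrow macrophages were treated with RANKL at 10 ng/ml and M-CSF at 2 ng/ml for 5 days in both genotypes, whereas the RNAseq methods of the study describe RNA from whole femurs and tibias. The headings of the count columns give the letter F, an age of 11 weeks and 1 code per library, taken here as an animal number. The letter was read as female for all libraries, whereas the RNAseq methods name male and female mice. The codes are K090, L080 and L082 for WT, and K089, L078 and L081 for Slc37a2 KO.

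The phagocyte NADPH oxidase moves electrons from NADPH across a membrane onto oxygen and so makes superoxide, which phagocytes use to kill microbes. Its catalytic core is a membrane heterodimer of gp91phox, encoded by Cybb, and p22phox, encoded by Cyba. It is silent until cytosolic subunits join it: among them the organizer p47phox (Ncf1), p40phox (Ncf4) and a Rac GTPase, which in blood cells is largely Rac2. Nox1 and Nox4 encode alternative catalytic subunits, and Nox4 is known to need p22phox but not the cytosolic subunits. Osteoclasts share their precursors with macrophages, and superoxide from these enzymes has been studied as a signal during osteoclast formation.

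Read depth ranged from 27552183 to 42522292 counts per library, and 13483 genes were tested. Slc37a2 itself was at 2149 ± 292 CPM (SD, n = 3) in WT and 38.1 ± 6.66 CPM in Slc37a2 KO, as labelled in all 6 libraries. CPM, a count relative to the total count of its library, is scaled by the trimmed mean of M-values (TMM) unless stated otherwise. Runs of 3 values list WT libraries as K090, L080, L082 and Slc37a2 KO libraries as K089, L078, L081. The libraries also differed in a way that crossed genotype unevenly, with WT libraries K090 and L080 on the side of Slc37a2 KO library L078. The summed CPM before scaling of 10 macrophage markers, of which Lyz2 was the most abundant, was 6270 to 7091 in K090, L080 and L078, and 3095 to 3476 in L082, K089 and L081. For the same sets of libraries, 12 interferon response genes summed to 231.9 to 359.3 and to 105.7 to 140.5 CPM. The osteoclast markers, led by Mmp9 at a mean of 23630 CPM, summed to 39870 to 51930 CPM in the first and 57360 to 70380 CPM in the second of these sets of 3 libraries. Of the neutrophil markers, Elane and Retnlg were not analysed here, and the 8 others, led by Csf3r, summed to between 1.71 and 6.62 CPM. Stromal markers led by Col1a1 summed to 653.5 to 2039 CPM, and proliferation genes led by Mki67 to 563.7 to 1249 CPM. None of these markers had an adjusted p below 0.05 for genotype. Estimates were higher in Slc37a2 KO for 10 of 10 osteoclast, 2 of 10 macrophage and 0 of 12 interferon response genes tested. They were higher for 0 of 10 proliferation, 0 of 7 stromal and 0 of 3 neutrophil genes tested, against 44.2% of all genes. In bulk RNA, fewer cells of a type and less RNA per cell cannot be told apart.

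No genotype difference was called for any of the 7 oxidase genes. In the edgeR quasi-likelihood test each had an adjusted p of 0.979, so 0 of 7 were called at an adjusted p below 0.05, against 0.00742% of all genes tested, which was Slc37a2 alone. Also, 0 of 7 had an unadjusted p below 0.05, against 0.705% of all genes, and 0 of 7 had WT and Slc37a2 KO libraries that did not overlap, against 4.31% of all genes. The estimates were higher in Slc37a2 KO for 3 members and lower for 4 (42.9% higher, against 44.2% of all genes tested), with a median log2 fold change of -0.03, against -0.02 over all genes. Exact permutation tests over the libraries, which cannot give a p under 0.1 with 3 against 3, gave two-sided p-values from 0.3 to 0.9. What set the members apart from each other was how much they varied among libraries of the same genotype. Cybb and Ncf1 varied about as widely within each genotype as across all libraries, while Cyba, Ncf4 and Rac2 stayed within narrow ranges.

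**Figure D1:**
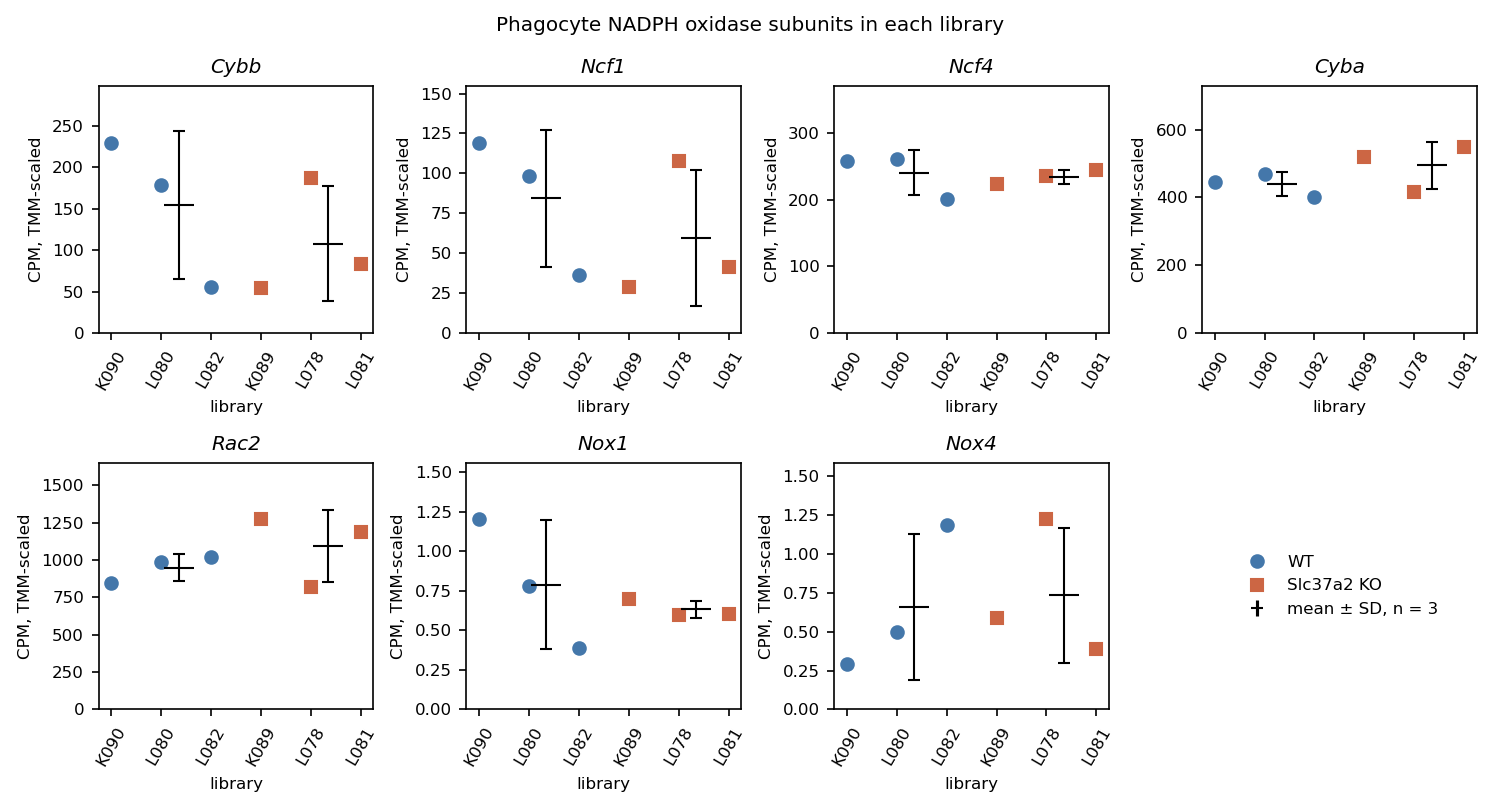
Level of each oxidase gene in each library, in TMM-scaled CPM on axes that start at 0, with WT as circles, Slc37a2 KO as squares and the mean ± SD of each genotype (n = 3) as bars. Cybb and Ncf1 are high in K090, L080 and L078 and low in the other libraries of both genotypes, and WT and Slc37a2 KO values overlap for all 7 genes.

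Cybb, on the minus strand of chromosome X (GRCm38, 9435252 to 9487771 in GENCODE M21), encodes the electron-carrying subunit that is mutated in X-linked chronic granulomatous disease. Its level in WT was 229.5 CPM in K090, 179.1 CPM in L080 and 55.3 CPM in L082, and in Slc37a2 KO it was 53.7 CPM in K089, 186.9 CPM in L078 and 83.2 CPM in L081. Each genotype thus held both high and low libraries, and the highest level was 4.28 times the lowest. The means were 154.6 ± 89.7 CPM in WT and 107.9 ± 70.0 CPM in Slc37a2 KO (SD, n = 3), a log2 fold change of -0.52 with an SE of 0.63 (fold 0.70, 95% interval 0.245 to 1.99). The interval takes in both a large fall and a rise, so the data set only wide limits on a genotype difference in Cybb.

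Ncf1 (chromosome 5, 134220053 to 134229625, minus strand) encodes p47phox, the organizer whose phosphorylation starts assembly of the enzyme. It was at 119 CPM in K090, 98.1 CPM in L080 and 36.4 CPM in L082 for WT, and at 28.7 CPM in K089, 107.8 CPM in L078 and 41.4 CPM in L081 for Slc37a2 KO. The same 3 libraries were high as for Cybb, in both genotypes. Means were 84.5 ± 42.9 and 59.3 ± 42.5 CPM (SD, n = 3), a log2 fold change of -0.50 with an SE of 0.60 (fold 0.705, 95% interval 0.256 to 1.94). The 3' part of the gene overlaps Gtf2ird2 on the opposite strand, which had 2457 counts over the 6 libraries, and whether the counting used strand is not stated in the methods or labels.

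The promoters of Cybb and Ncf1 are shown because these genes rose and fell together among the libraries. Sequences are from RefSeq (GRCm38.p6), which matched 5 of the 7 members, and run from 150 bases before to 30 bases after the annotated start, at chrX:9469295-9469474 and chr5:134229596-134229775, both on the minus strand. Capitals mark matches to GAGGAA, the core recognised by the myeloid factor PU.1, and to GGAANNGAAA, the composite element of an ETS factor such as PU.1 with an interferon regulatory factor such as IRF8.
Cybb: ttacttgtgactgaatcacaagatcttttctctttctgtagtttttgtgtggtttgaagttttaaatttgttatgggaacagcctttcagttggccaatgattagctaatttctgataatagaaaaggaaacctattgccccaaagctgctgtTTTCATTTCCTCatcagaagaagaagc
Ncf1: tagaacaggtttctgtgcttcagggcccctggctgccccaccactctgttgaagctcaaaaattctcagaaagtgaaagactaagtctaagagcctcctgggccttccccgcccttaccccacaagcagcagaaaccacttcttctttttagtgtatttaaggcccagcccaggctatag
Both strands were searched in the window from 250 bases before to 50 bases after the start. In Cybb the composite element matched on the opposite strand from base 4 to base 13 after the start and overlapped the PU.1 core, which matched from base 10 to base 15. The Ncf1 window held neither motif. Among the other members searched (Cyba, Nox1 and Nox4), the Nox1 window alone held a match, to GAGGAA. The PU.1 core occurs in 28.3% of 32817 promoters of this length and the composite in 2.72%. These matches describe the letters only.

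Cyba (chromosome 8, 122424776 to 122432930, minus strand) encodes p22phox, which stabilises the catalytic subunits. Its level was 446.3, 470 and 402.2 CPM in WT, and 518.5, 416.3 and 548.9 CPM in Slc37a2 KO. K089 and L081 lay above all WT libraries and L078 lay among them, so the groups overlapped. The log2 fold change was 0.17 with an SE of 0.12 (fold 1.12, 95% interval 0.916 to 1.38; 439.5 ± 34.4 against 494.5 ± 69.5 CPM, SD, n = 3). Although it codes for the obligate partner of gp91phox, Cyba did not have the library pattern of Cybb.

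Ncf4 (chromosome 15, 78244801 to 78262580, plus strand) encodes p40phox, which binds phosphatidylinositol 3-phosphate on phagosomes. It was measured at 258.3, 261.6 and 201.4 CPM in WT and at 223.9, 235.2 and 245 CPM in Slc37a2 KO. All Slc37a2 KO values lay inside the WT range. With a log2 fold change of -0.03 and an SE of 0.11 (fold 0.976, 95% interval 0.809 to 1.18), Ncf4 had the narrowest interval of the 7 genes. An estimate this near 0 changed sign on leaving out K090, L080 or K089, to between 0.02 and 0.03.

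Rac2 (chromosome 15, 78559167 to 78572783, minus strand), the GTPase that switches the oxidase on and also organises actin, had the highest CPM of the members and ranked 82nd of the genes tested. WT libraries had 845.2, 984 and 1019 CPM, and Slc37a2 KO libraries had 1272, 818.9 and 1191 CPM. L078 was the lowest of all 6 libraries and the other Slc37a2 KO libraries were the highest. The log2 fold change was 0.20 with an SE of 0.18 (fold 1.15, 95% interval 0.848 to 1.57). Rac2 is similar in sequence to Rac1, and how reads matching both were counted is likewise not stated.

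Library L078 decided the size of several of these estimates. Without it, the log2 fold change of Cybb went from -0.52 to -1.18 and that of Ncf1 from -0.50 to -1.27, and Cyba went to 0.28 and Rac2 to 0.38. The unadjusted p-values then were 0.0172 for Cyba, 0.0467 for Ncf1 and 0.0123 for Rac2. Their adjusted p-values in this edgeR fit were 0.243, 0.256 and 0.243. The share of all genes below an unadjusted p of 0.05 in this fit was not counted. These values are therefore not read as particular to the members. L078 was the Slc37a2 KO library with high macrophage and interferon markers and its removal left a pair of low libraries against 2 high WT libraries and 1 low. In the opposite direction, the Cybb estimate shrank to -0.11 without WT library K090, and that of Ncf1 to -0.16 without Slc37a2 KO library K089.

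Transcripts of the alternative catalytic subunits were scarce. Nox1 (chromosome X, 134086421 to 134221956, minus strand), best known from colon epithelium, had between 12 and 49 counts per library, at 1.2, 0.777 and 0.385 CPM in WT and 0.697, 0.599 and 0.601 CPM in Slc37a2 KO. Its Slc37a2 KO libraries lay within the WT range, and the log2 fold change was -0.38 with an SE of 0.42 (fold 0.768, 95% interval 0.379 to 1.56). The annotated span of Nox1 also overlaps Cstf2, with 13198 counts over the 6 libraries, and Xkrx, with 197, and a share of its few reads from these genes cannot be told apart. Without WT library K090 the Nox1 estimate changed sign, to 0.13, and without L082 it was -0.67.

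Nox4 (chromosome 7, 87246096 to 87398710, plus strand), whose enzyme is active without the cytosolic subunits and makes mainly hydrogen peroxide, had 11 to 55 counts per library. It was at 0.294, 0.495 and 1.19 CPM in WT and at 0.587, 1.22 and 0.389 CPM in Slc37a2 KO. L082 and L078, one of each genotype, were the highest, and these were also the libraries with the highest summed stromal markers (1677 and 2039 CPM, against 653.5 to 1347 in the other libraries). The part of stromal RNA in the Nox4 values was not tested. The log2 fold change was 0.32 with an SE of 0.63 (fold 1.25, 95% interval 0.437 to 3.58), and it went to -0.38 without L078, to -0.11 without K090 and to 1.08 without L082.

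The order of the members by level was read per kilobase of exon, since CPM grows with transcript length. Cyba was the highest, at a mean of 423 ± 33.1 CPM per kilobase in WT and 476 ± 66.9 in Slc37a2 KO (SD, n = 3), and was above Rac2, at 306 ± 29.6 and 352.6 ± 77.9 CPM per kilobase, in 6 of 6 libraries. Ncf4 followed at 119 and 116.2 CPM per kilobase. Cybb, at 26.6 and 18.6 CPM per kilobase, and Ncf1, at 23.1 and 16.2, were next. Cybb was above Ncf1 in 5 of 6 libraries, and the order of these neighbours was not tested. The membrane partner p22phox thus had a mean transcript level per kilobase over 10 times that of gp91phox in both genotypes. Nox1 and Nox4 came last, at 0.238 and 0.0778 CPM per kilobase in WT and 0.191 and 0.0864 in Slc37a2 KO. Their order depended on the length used: with the longest coding transcript of each gene in place of all exons, a choice made after the data were seen, Nox4 was above Nox1 by 0.20 on the log2 scale in WT.

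Spread within genotypes was compared on the log2 CPM scale. The pooled SD within genotypes was 1.01 for Cybb and 0.95 for Ncf1, larger than in 98% and 97.4% of all genes tested, whose median was 0.17. It was 0.17 for Cyba, 0.16 for Ncf4 and 0.26 for Rac2, close to or somewhat above that median. For Nox1 and Nox4 it was 0.54 and 0.85, at counts where sampling error alone is large. Over the 6 libraries, log2 CPM of Cybb and Ncf1 had a Pearson r of 0.989, while Rac2 went the other way (r = -0.818 with Cybb and -0.885 with Ncf1). These correlations describe 6 libraries that share the division seen in the marker genes, and carry no p.

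**Figure D2:**
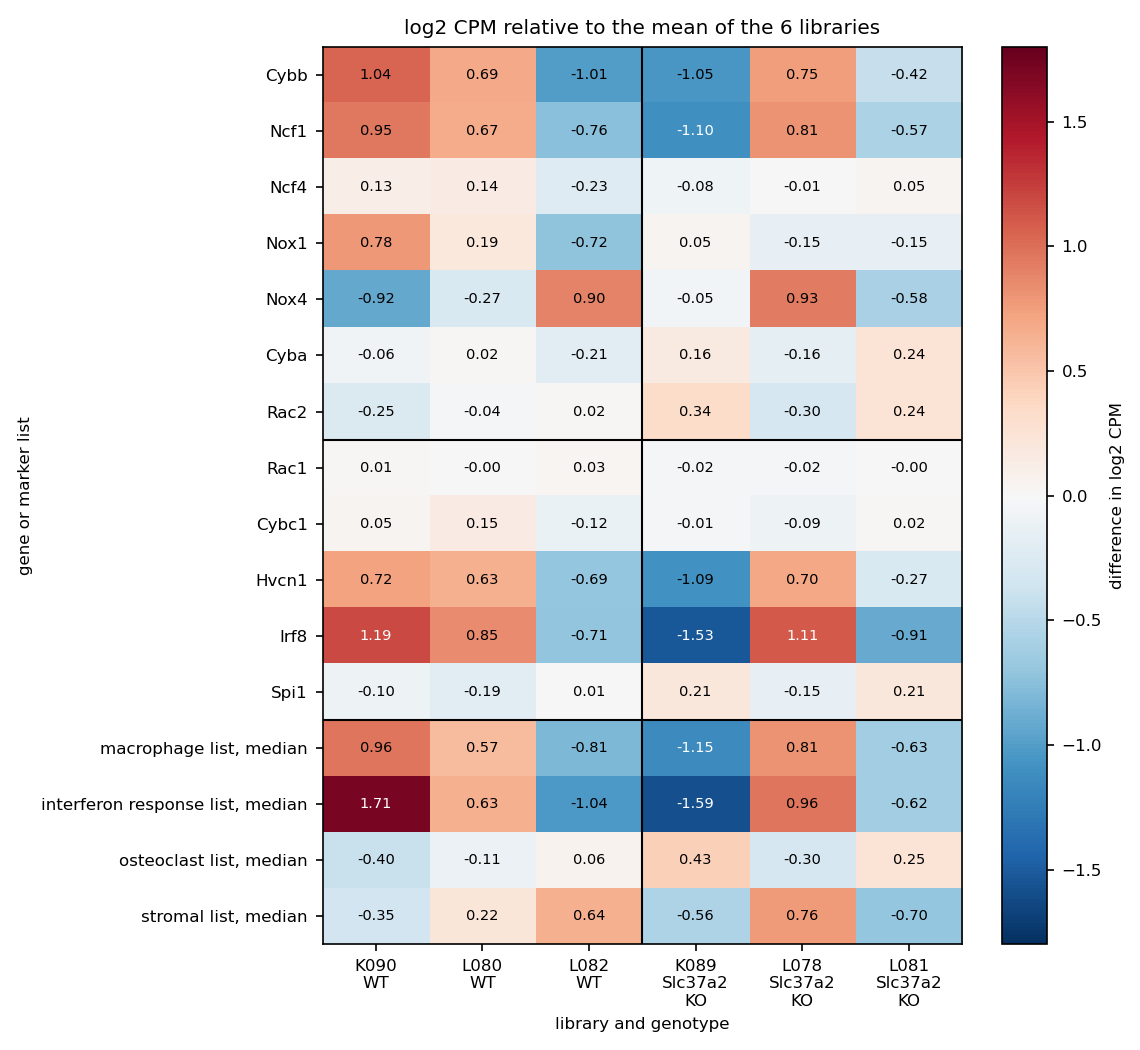
Difference of log2 CPM from its mean over the 6 libraries (colour and printed value) for the 7 oxidase genes, for other genes of the pathway and for the medians of 4 marker lists, with libraries in columns by genotype. Cybb, Ncf1, Hvcn1 and Irf8 are above their mean in K090, L080 and L078 with the macrophage and interferon response lists, whereas Rac1 and Cybc1 stay near 0.

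The division among libraries was counted by asking which 3 libraries were highest for each gene. The reference set was K090, L080 and L078, the highest for Cybb, which matches by definition. These were also the highest for Ncf1, for 9 of 10 macrophage markers and for 12 of 12 interferon response genes, against 22.6% of all genes tested. The reverse order, with L082, K089 and L081 highest, held for Rac2 and for 8 of 10 osteoclast markers, against 20.8% of all genes. Lyz2, the lysozyme gene of macrophages, was at 4288, 3561 and 1249 CPM in WT and at 1021, 3765 and 1401 CPM in Slc37a2 KO. Cybb and Ncf1 were high where Lyz2 was high, and the part of macrophage or interferon-responding cells in their values was not tested.

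Ratios within a library do not depend on scaling between libraries. Ncf1 to Cybb counts stood at 0.519, 0.548 and 0.659 in WT and at 0.534, 0.577 and 0.498 in Slc37a2 KO. The largest ratio was thus 1.32 times the smallest, although each gene varied over 4-fold in level. Against Cybb, the other subunits were far less even: Cyba to Cybb ranged from 1.94 to 9.65, Ncf4 to Cybb from 1.12 to 4.17, and Rac2 to Cybb from 3.68 in K090 to 23.7 in K089. Rac2 to Rac1 ranged from 2.41 to 3.73. Exact permutation tests of these ratios gave two-sided p-values from 0.4 to 0.7 (adjusted p = 0.7 for each). With 3 against 3 libraries this test cannot give a p under 0.1, so no ratio could have been called. The Ncf1 to Cybb ratio differed by -0.10 on the log2 scale.

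A comparison with Lyz2 was added after the values were seen. Ncf1 had 2.78, 2.75 and 2.92 counts per 100 Lyz2 counts in WT and 2.81, 2.86 and 2.96 in Slc37a2 KO, so the largest value was 1.07 times the smallest. Cybb per 100 Lyz2 counts ranged from 4.42 in L082 to 5.94 in L081. Set against the whole macrophage list, Cybb was less even, from 1.61 counts per 100 in K089 to 3.37 in K090. That list includes Csf1r, which did not have the division of Lyz2. Csf1r was at 1757, 1885 and 1851 CPM in WT and 2096, 1724 and 1971 CPM in Slc37a2 KO. Lyz2 was itself among the genes most like Ncf1 over these libraries, so the even ratio is a description of that likeness.

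**Figure D3:**
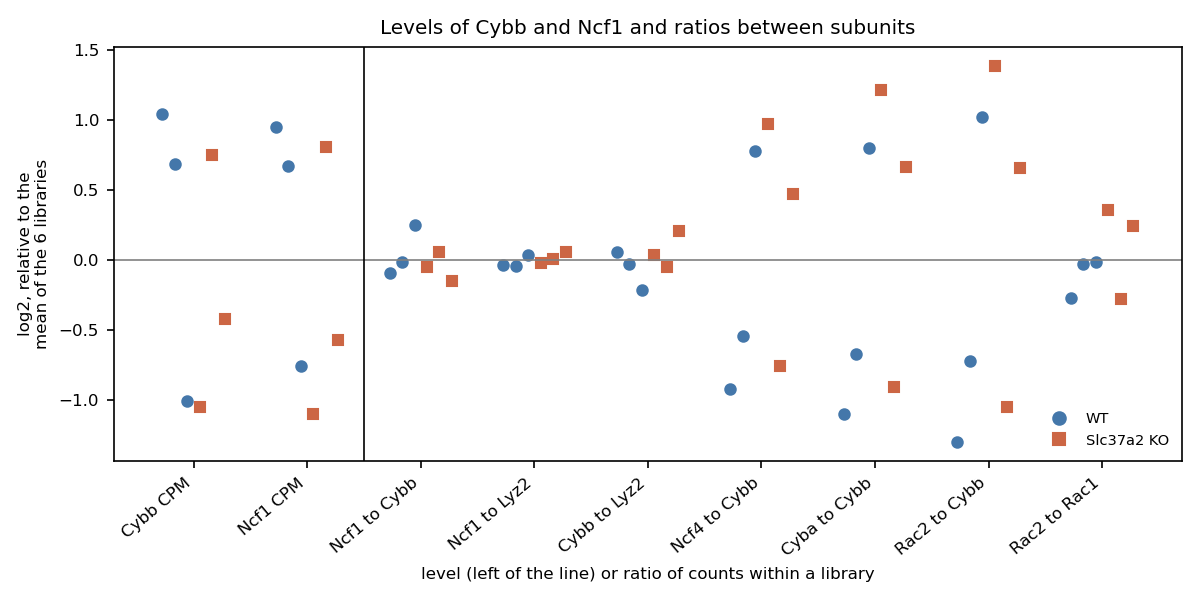
Levels of Cybb and Ncf1 (left of the line, scaled CPM) and ratios of counts within each library (right of it), each as the log2 difference from its mean over the 6 libraries, with WT as circles and Slc37a2 KO as squares. Ratios of Ncf1 to Cybb and of both genes to Lyz2 stay near 0, and those of the other subunits to Cybb spread as widely as Cybb itself.

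The genes most like each member were ranked by Pearson r of log2 CPM over the 6 libraries, among 11857 genes compared. For Cybb they were Dram1, a p53 target gene linked to autophagy (r = 0.999), Ccl3, a macrophage chemokine (0.999), Oas2, an interferon-induced sensor of double-stranded RNA (0.999), Sgpp1, a sphingosine-1-phosphate phosphatase (0.998), and Themis2 (0.998), a signalling adaptor of myeloid and B cells. Oas2 was at 32.9, 22.5 and 4.69 CPM in WT and at 4.7, 22.2 and 8.59 CPM in Slc37a2 KO. For Ncf1 the nearest were Pik3cg, Tlr2, which recognises bacterial lipoproteins, and Lyz2, with r from 0.999 to 1.00. For Rac2 they were Cgrrf1, Traf3ip2, an adaptor of the interleukin-17 receptor, and Atp6v1b2, a subunit of the proton pump of osteoclasts. Atp6v1b2 was at 2940, 3326 and 3476 CPM in WT and 4275, 2847 and 3979 CPM in Slc37a2 KO, so it was high where Cybb was low. The nearest to Cyba were Taf13, Zfp709 and Sdf4 (r from 0.984 to 0.987), and to Ncf4 Ddhd2, Arrdc1 and Trp53inp1 (r from 0.995 to 0.996). High values were common for Cybb, Ncf1 and Rac2: 690 genes had an r over 0.95 with Cybb, 836 with Ncf1 and 636 with Rac2. Over the same 6 libraries, 42 genes had an r over 0.95 with Cyba and 52 with Ncf4.

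Beyond the members, 42 genes of the pathway were examined in 5 lists, of which 40 were analysed here and 36 passed the filter on low counts. None was called, against 0.00742% of all genes tested, and none had an unadjusted p below 0.05, against 0.705% of all genes. With shares this small, none of 36 says little about these lists. Estimates were higher in Slc37a2 KO for 13 (36.1%, against 44.2% of all genes) and lower for 23, with a median log2 fold change of -0.05. Among the oxidase relatives, 3 of 8 were tested and 0 called. Nox3, the oxidase of the inner ear, and Duox1, known from airway epithelium, were at 0 in 5 of 6 libraries.

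Of 12 small GTPases and their regulators, 12 were tested and 0 called. Rac1, the widely expressed relative of Rac2, was at 348.6, 344.4 and 352 CPM in WT and at 340.8, 340.3 and 344.8 CPM in Slc37a2 KO. It was among the steadiest genes measured, with a pooled SD within genotypes of 0.0134 on the log2 scale, and its log2 fold change was -0.03 (SE 0.05). Rac3, a scarce relative, was at 1.1, 1.34 and 1.09 CPM in WT and 0.844, 1.02 and 1.02 CPM in Slc37a2 KO. Its libraries did not overlap between genotypes, but the difference did not pass the test (log2 fold change -0.27, SE 0.21). Dock2, a Rac activator of blood cells, had the division of Cybb, at 142.8, 109.7 and 48.0 CPM in WT and 40.2, 125.6 and 57.3 CPM in Slc37a2 KO. It was singled out after its values were seen.

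Of 7 kinases and lipid enzymes of oxidase activation, 7 were tested and 0 called. Pak1, a kinase activated by Rac, was lower in all Slc37a2 KO libraries (88.0, 93.3 and 92.3 CPM, against 104.3, 93.6 and 95.7 CPM in WT), a log2 fold change of -0.10 (SE 0.06) that did not pass the test. Rac3 and Pak1 were the 2 of 36 pathway genes without overlap between genotypes, against 4.31% of all genes. Pik3cg, which encodes the phosphoinositide 3-kinase gamma that acts behind chemoattractant receptors, was at 48.0, 42.9 and 23.2 CPM in WT and 19.9, 44.9 and 24.8 CPM in Slc37a2 KO. Like Cybb and Ncf1, it was high in K090, L080 and L078.

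Of 7 genes of oxidase maturation and its limits, 7 were tested and 0 called. Cybc1, which encodes a chaperone needed for gp91phox protein, was at 53.8, 57.6 and 47.7 CPM in WT and 51.4, 48.7 and 52.8 CPM in Slc37a2 KO (log2 fold change -0.06, SE 0.08). It varied little, unlike Cybb. Hvcn1, the voltage-gated proton channel that offsets the charge moved by the oxidase, was singled out after its values were seen. It was at 36.1, 34.0 and 13.6 CPM in WT and 10.3, 35.5 and 18.1 CPM in Slc37a2 KO, again high in the libraries where Cybb was high.

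Of 8 transcription factors known to bind the Cybb promoter, 7 were tested and 0 called, and 5 of the 7 had K090, L080 and L078 as their highest libraries. Irf8, which encodes a factor of the monocyte lineage that falls as osteoclasts form, was singled out after its values were seen, since it varied most among the tested genes of the list. It was at 19.1, 15.1 and 5.1 CPM in WT and 2.86, 18.1 and 4.42 CPM in Slc37a2 KO, and the highest level was 6.68 times the lowest. Spi1, which encodes PU.1, went the other way over a narrower range, at 497.6, 467.5 and 535.7 CPM in WT and 614.7, 480.9 and 615.3 CPM in Slc37a2 KO. The log2 fold change was -0.58 (SE 0.75) for Irf8 and 0.19 (SE 0.12) for Spi1, each with an adjusted p of 0.979 in the edgeR test.

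**Figure D4:**
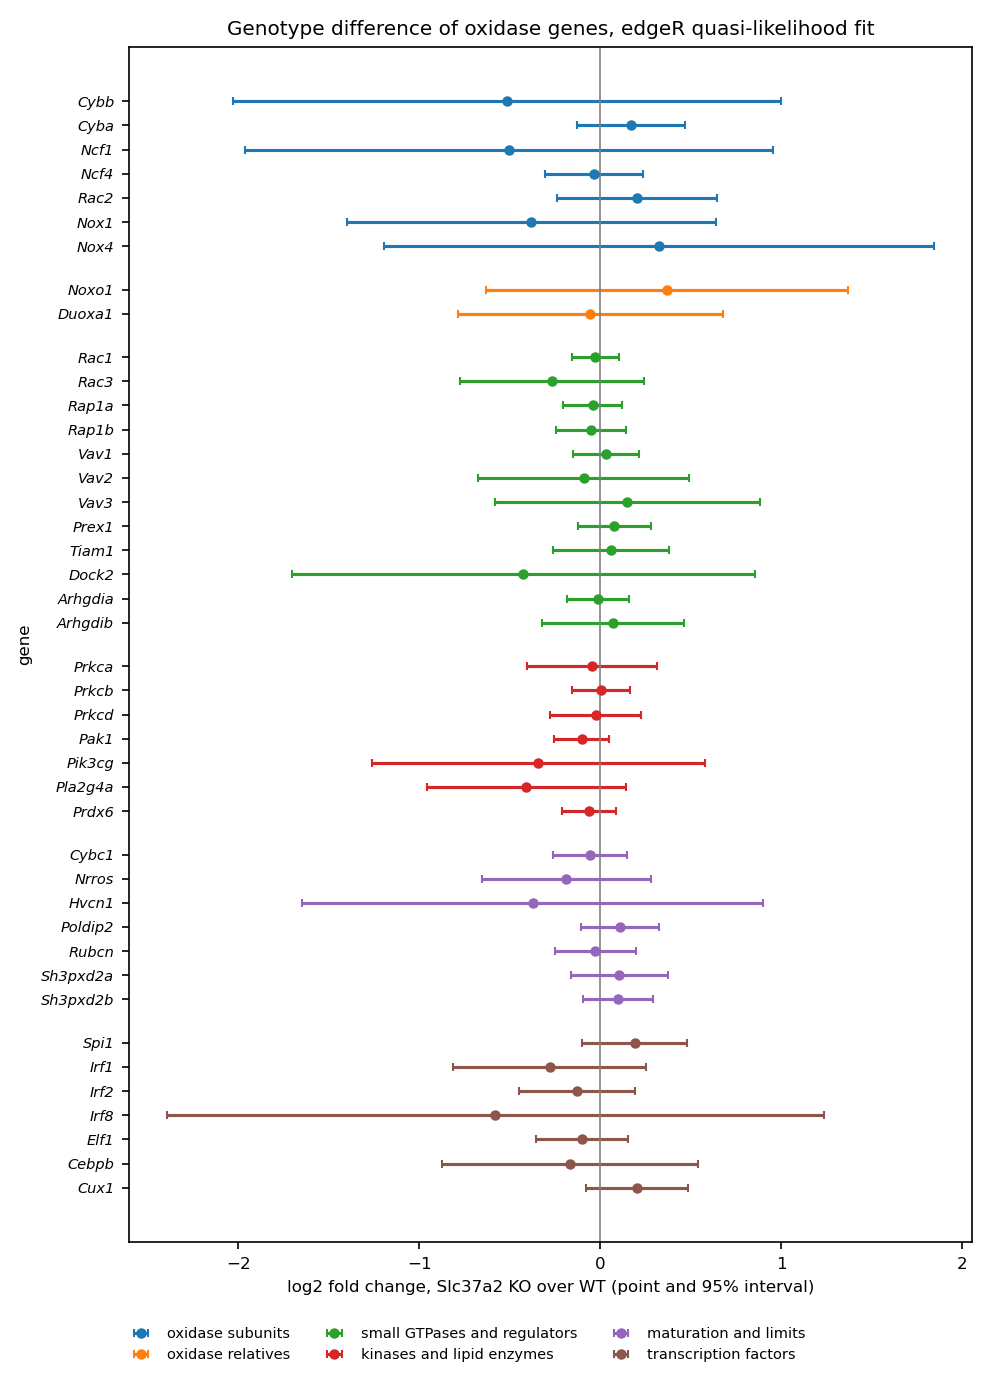
Difference of Slc37a2 KO from WT as a log2 fold change from the edgeR quasi-likelihood fit, as a point with its 95% interval, for the 7 oxidase subunits and other pathway genes tested, coloured by list. Every interval spans 0, and the widest belong to Irf8, Cybb, Ncf1 and Nox4.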

How the data were processed

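The authors deposited whole-number read counts per gene for 6 libraries, not normalized, beside the log2 fold changes, mean log2 CPM, likelihood ratio scores, p-values and adjusted p-values that the authors made with edgeR, which were not used. The submitters' processing notes name bcl2fastq 2.20.0.422, edgeR 3.30.3 and mm10 (GRCm38). How reads were aligned and counted, and on which strand and annotation, is not given in the sources used here. Columns were assigned to genotypes by their headings, which carry no replicate numbers.

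Tests were run with edgeR 4.0.16 in R 4.3.3 (filterByExpr defaults, TMM, quasi-likelihood F test, Benjamini-Hochberg over 13483 genes), genotype as the only term, called at an adjusted p below 0.05. SEs were the log2 fold change over the square root of F. Log2 CPM used a prior count of 2, and ratios a pseudocount of 0.5. DESeq2 1.42.0 was an alternative. The procedure was also run on simulated counts. These had no division among libraries shared by many genes, so that run does not show how the test behaves with one. Exon lengths and positions came from GENCODE M21. As libraries are labelled biological replicates and their codes were taken as separate animals, intervals cover differences between animals.

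Members and lists were chosen with earlier results of these data known. Named were all members, Rac1, Cybc1, pathway genes called or without overlap between genotypes, the 5 genes most like Cybb (mean of at least 1 CPM) and the 3 most like each other member with a mean of at least 10 CPM, Slc37a2 and the most abundant gene of each marker list. Others were chosen after their values were seen, among them Spi1, Nox3, Duox1 and the Lyz2 ratios. Some items named by this rule are not reported here.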

Additional observations from a re-analysis of the deposited data

How the results depend on the processing

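Under 15 alternatives (DESeq2 or upper quartile scaling, 2 other filters, 4 other tests, the letter of the animal number as a term, and leaving out each library), 0 members were called, and the lowest adjusted p of a member was 0.243, without library L078. Over all genes 1 was called, with or without a log2 fold limit of 1.5, but 2 with edgeR's likelihood ratio test and 2 with DESeq2's Wald test. Of 103 member fold changes, 97 kept their direction and 6 reversed, all on leaving out a library. These leave-one-out ranges, on the log2 scale, were -0.12 to 0.030 for Ncf4, -0.67 to 0.13 for Nox1, -0.38 to 1.08 for Nox4, -0.17 to 0.0066 for the Ncf1 to Cybb ratio difference, and -0.34 to 0.030 for the median of the members. Between them, leave-one-out fits gave -1.18 to -0.11 for Cybb and -1.27 to -0.16 for Ncf1. With the longest coding transcript as length, Nox4 over Nox1 in WT was 0.20 on the log2 scale, reversed from the exon-based order. The filter of at least 1 CPM in 3 libraries removed Nox1 and Nox4. No paired analysis was possible because the columns carry no replicate numbers. Nox1 and Nox4 had 11 to 55 counts per library, where sampling error is large, and Cybb and Ncf1 had 781 to 9369 counts. The parts of sampling error and of spread between libraries in these estimates were not tested.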
